A study of Saccharomyces cerevisiae with 4 samples.

Results

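A set of 10 open reading frames was examined, the core, variant and linker histone genes of the budding yeast Saccharomyces cerevisiae, out of 6211 in the array table. They were taken by systematic name. Histone H2A is encoded by HTA1 (YDR225W) and HTA2 (YBL003C), H2B by HTB1 (YDR224C) and HTB2 (YBL002W), H3 by HHT1 (YBR010W) and HHT2 (YNL031C), and H4 by HHF1 (YBR009C) and HHF2 (YNL030W). HTZ1 (YOL012C) encodes the H2A variant H2A.Z and HHO1 (YPL127C) the linker histone H1. All 10 had a value on every array. The series hybridised RNA of a strain labelled GCN2c directly against RNA of a wild-type (WT) strain on 4 arrays of 2 colours. Both strains were grown to log phase in rich YPD medium at 28 °C, and no DNA-damaging treatment is named for them. The labels call GCN2c a mutant, the design text calls it overexpressing, and neither gives the allele, the promoter or the number of clones.

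Histones package DNA into nucleosomes, each built from H2A, H2B, H3 and H4, with H1 binding the linker DNA between them. In budding yeast the core histone genes lie as divergent pairs that share a promoter and are transcribed mainly in S phase, when new DNA must be packaged. Their transcription is driven by the SBF and MBF factors with Spt10 and Spt21, and is held down outside S phase by the HIR complex, which acts on all the pairs but HTA2-HTB2. Unlike the replication-dependent histone mRNAs of animals, yeast histone mRNAs carry poly(A) tails, so the poly-dT priming used for these arrays can copy them. The kinase Gcn2 senses uncharged tRNA and phosphorylates eIF2 to slow translation, and the series title places it in a G1/S checkpoint after DNA damage.

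Each value is a deposited log ratio of the 2 channels of a spot, read as log2 of GCN2c over WT, so that a negative value means a lower level in GCN2c cells. No label states the direction or the log base. GCN2c over WT was assumed, and the titles, which read WT vs GCN2, do not settle it. Cy5 carried GCN2c on replicates 1 and 3. With the other reading each higher value here would be a lower one. Replicates 2 and 4, with the dyes swapped so that GCN2c was in Cy3, were near-identical, and their histone values differed by 0.003 to 0.004. They were averaged and counted as 1 replicate, called the dye-swapped pair here, which leaves n = 3. The arrays held 6057 to 6177 values each, with medians between -0.03 and -0.09. GCN2 itself gave -0.39 and 0.10 on the Cy5 replicates and -0.68 on the dye-swapped pair (mean -0.33 ± 0.39, SD, n = 3; limma adjusted p = 0.453). Read as GCN2c over WT, the spot thus did not show the overexpression the design text names. With the other reading its mean would lie above 0. The design text calls the 4 arrays biological replicates, which the near-identity of the dye-swapped pair goes against, and whether the other cultures were grown separately is not described further.

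All 8 core histone genes had lower levels in GCN2c cells than in WT cells on each of the 3 replicates, by 0.51 to 0.83 on the log2 scale in the mean, or 56.1% to 70.1% of the WT level. HTZ1 and HHO1 lay closer to 0 and were above 0 on replicate 3. None of the 10 genes passed limma's test after Benjamini-Hochberg adjustment over 6130 genes, while 0.326% of all genes tested did so in the lower direction. By one-class SAM none of the 10 passed either, against 0.684% of all genes in the lower direction. At an unadjusted p under 0.05, 7 of the 10 were lower, against a background of 10.7% of all genes. A value below 0 on all 3 replicates was seen for 8 of the 10 and for 28.1% of all genes with 3 values. The RNA came from whole cultures, so fewer cells in S phase and less histone mRNA per cell cannot be told apart.

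**Figure D1:**
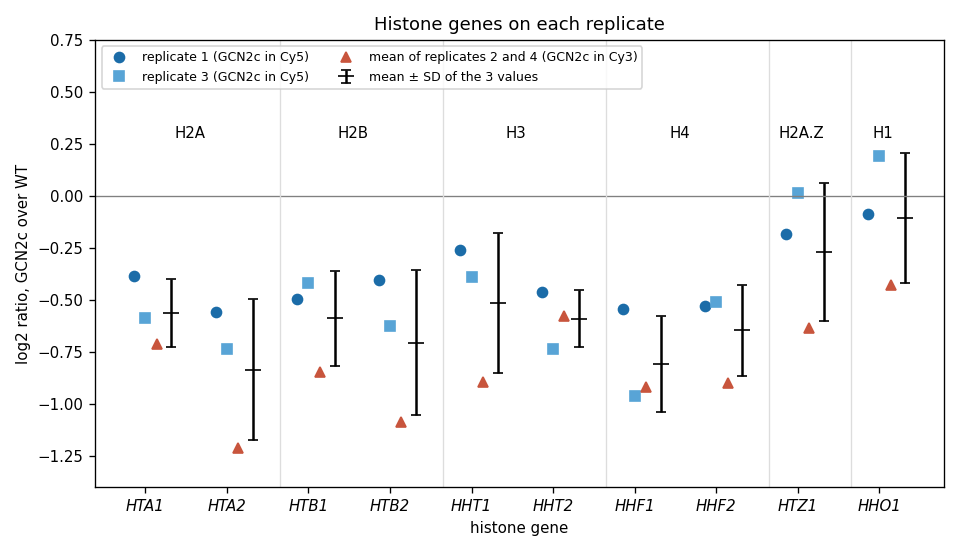
Log2 ratio of GCN2c over WT (y axis) for the 10 histone genes (x axis) on replicate 1, replicate 3 and the dye-swapped pair, with the mean ± SD of the 3 values beside them. All 24 core histone values are below 0, and HTZ1 and HHO1 are above 0 on replicate 3.

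The H2A copies differed by 0.27 ± 0.20 in the mean (SD, n = 3), with HTA2 the lower. HTA1 stood at -0.39, -0.59 and -0.71 on replicate 1, replicate 3 and the dye-swapped pair. Its mean was -0.56 ± 0.16 (SD, n = 3), or 67.8% of the WT level with a 95% interval of 49.5% to 92.9% (limma adjusted p = 0.181). HTA2, the other H2A copy, stood at -0.56, -0.74 and -1.21 on the same replicates. It was the lowest of the 10, at -0.83 ± 0.34 (SD, n = 3) or 56.1% of WT, with an interval of 39.0% to 80.7% (limma adjusted p = 0.126). HTA2 was below HTA1 on every replicate, by 0.17 on replicate 1, 0.15 on replicate 3 and 0.50 on the dye-swapped pair. Of all genes tested, 2.77% had a mean at or below that of HTA2 and 9.87% at or below that of HTA1.

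The H2B genes, whose products pair with H2A in the nucleosome, had no constant order between copies. HTB1 stood at -0.50 and -0.42 on replicates 1 and 3 and -0.85 on the dye-swapped pair, a mean of -0.59 ± 0.23 (SD, n = 3; limma adjusted p = 0.181). HTB2 stood at -0.40 and -0.63 on replicates 1 and 3 and -1.09 on the dye-swapped pair, a mean of -0.71 ± 0.35 (SD, n = 3; limma adjusted p = 0.163). The mean levels were 66.6% of WT for HTB1 and 61.3% for HTB2. HTB2 was above HTB1 by 0.09 on replicate 1 and below it by 0.21 and 0.24 on replicate 3 and on the dye-swapped pair.

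The H3 genes encode the histone whose tail carries much of the methylation and acetylation read by chromatin factors. HHT1 was the smallest of the core differences, with -0.26 and -0.39 on replicates 1 and 3 and -0.89 on the dye-swapped pair. Its mean was -0.51 ± 0.33 (SD, n = 3; limma adjusted p = 0.247), or 70.1% of WT, and its 95% interval of 48.8% to 101% includes the WT level. HHT2 gave -0.46, -0.73 and -0.58, a mean of -0.59 ± 0.14 (SD, n = 3; limma adjusted p = 0.166), which was the smallest SD of the 10. HHT2 was also the 1 core gene that was no lower on the dye-swapped pair than in the mean of replicates 1 and 3.

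The H4 genes, the partners of H3 in the nucleosome, included the smallest p-value of the family. HHF1 stood at -0.54, -0.96 and -0.92 on replicate 1, replicate 3 and the dye-swapped pair. Its mean of -0.81 ± 0.23 (SD, n = 3; limma adjusted p = 0.111) is 57.2% of WT, with an interval of 41.1% to 79.6%. HHF2 gave -0.53, -0.51 and -0.90, a mean of -0.64 ± 0.22 (SD, n = 3; limma adjusted p = 0.157) or 64.0% of WT. The copies differed by 0.01 and 0.02 on replicate 1 and on the dye-swapped pair, and HHF1 was lower by 0.45 on replicate 3. Copies of 1 histone have closely similar coding sequences, so their spots can share signal, and the probe sequences were not used here.

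HTZ1 and HHO1 showed smaller differences. H2A.Z, the product of HTZ1, is placed at nucleosomes beside promoters by the SWR1 complex, and its deposition is not tied to DNA synthesis. HTZ1 stood at -0.18 on replicate 1, 0.02 on replicate 3 and -0.63 on the dye-swapped pair, with a mean of -0.27 ± 0.33 (SD, n = 3; limma adjusted p = 0.509). HHO1 stood at -0.09, 0.20 and -0.43 on the same replicates, with a mean of -0.11 ± 0.31 (SD, n = 3; limma adjusted p = 0.811). The 95% intervals were 57.9% to 119% of WT for HTZ1 and 65.1% to 132% for HHO1, so the means of 6 of the 8 core genes lie within the interval of HTZ1 and those of 4 within that of HHO1.

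Measured within each replicate, both genes nevertheless lay above the core genes. HHO1 was above the core median by 0.39 on replicate 1, 0.80 on replicate 3 and 0.47 on the dye-swapped pair, and above all 8 core genes each time. HTZ1 was above the core median by 0.29, 0.62 and 0.26, and above all 8 core genes on replicates 1 and 3 and 7 of them on the dye-swapped pair, where HHT2 was higher. Against the mean of the H2A genes, which encode its canonical counterpart, HTZ1 was higher by 0.43 ± 0.21 (SD, n = 3). These differences within the family are given as descriptions, with no test.

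In order of the mean, the core genes ran HTA2, HHF1, HTB2, HHF2, HHT2, HTB1, HTA1 and HHT1, from lowest to highest. Neighbours in this order were 0.0013 to 0.10 apart, less than the SD between replicates of any core gene, which was 0.14 to 0.35. The step from HHT1 to HTZ1 was 0.25 and that from HTZ1 to HHO1 was 0.16, also below the SDs of those genes. All genes share the same arrays, so the SD of a gene over replicates does not measure the error of a step between genes. Taken within replicates, the differences between divergent partners had SDs from 0.02 for HTA2 and HTB2 to 0.27 for HHT1 and HHF1. The median SD of the 10 genes was 0.27, against 0.33 for the 5997 tested genes with 3 values.

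The 8 core genes form 4 divergent pairs of adjacent genes in the R64 gene order: HTA1-HTB1 on chromosome IV, HTA2-HTB2 and HHT1-HHF1 on chromosome II with 9 protein-coding genes between them, and HHT2-HHF2 on chromosome XIV. The mean of the partners was -0.57 ± 0.18 for HTA1-HTB1, -0.77 ± 0.34 for HTA2-HTB2, -0.66 ± 0.25 for HHT1-HHF1 and -0.62 ± 0.12 for HHT2-HHF2 (SD, n = 3 each). HTA2-HTB2, the pair outside HIR control, was below HTA1-HTB1 on each replicate, at -0.48, -0.68 and -1.15 against -0.44, -0.50 and -0.78 on replicate 1, replicate 3 and the dye-swapped pair. It was also below HHT1-HHF1 each time (-0.40, -0.67 and -0.90), but above HHT2-HHF2 on replicate 1 (-0.49) and below it on the others (-0.62 and -0.74). These differences between loci are given with no test. Partners were 0.03 to 0.57 apart within a replicate, with a median size of 0.15 over 12 differences. Copies of 1 histone at different loci were 0.01 to 0.50 apart, with a median of 0.20. HTA2 was below its partner HTB2 on each replicate, by 0.15, 0.11 and 0.12, and HHT1 was above its partner HHF1 by 0.28, 0.57 and 0.03.

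**Figure D2:**
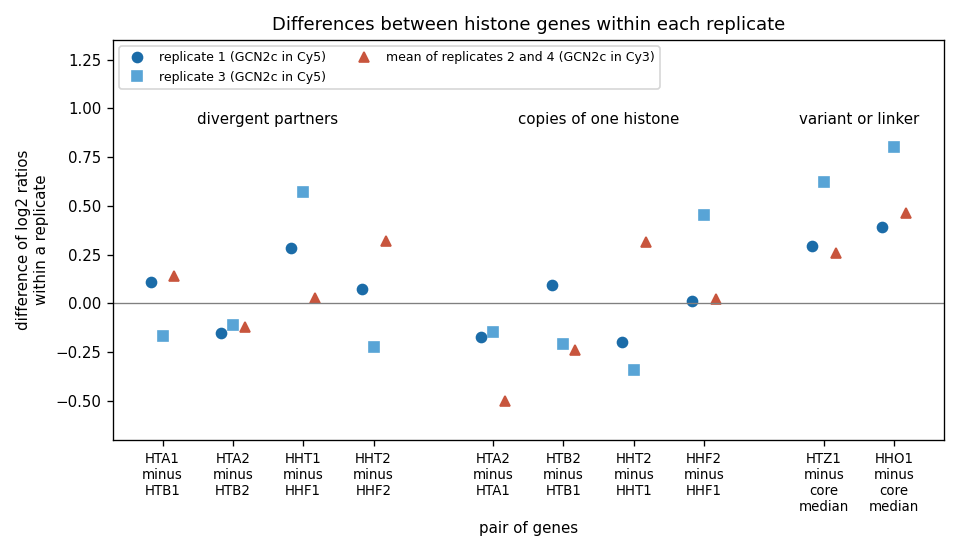
Differences of log2 ratios (y axis) within each replicate, between divergent partners, between copies of 1 histone, and between HTZ1 or HHO1 and the median of the 8 core genes (x axis). The partner and copy differences lie on both sides of 0, between -0.50 and 0.57, and those of HTZ1 and HHO1 are all above 0, at 0.26 to 0.80.

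The genes next to these pairs lay nearer to 0. The 8 flanking protein-coding genes had means between -0.39 and 0.15, with a median of -0.06, which is also the median of all genes tested. None of the 8 passed limma's test, where 2.06% of all genes did, and 2 were below 0 on all 3 replicates, near the background of 28.1%.

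The core values differed between the dye orientations. The dye-swapped pair was below the mean of replicates 1 and 3 for 7 of 8 core genes and for both HTZ1 and HHO1, which was so for 58.5% of all genes. The difference had a median of -0.38 over the core genes, and was -0.55 for HTZ1 and -0.48 for HHO1. Over all genes its median was -0.13 and its SD 0.82. Of all genes with 3 values, 21.0% had a difference at or below that of HTB2, the lowest core gene. For HHT2, the highest core gene, 59.9% did, so the core genes were not extreme in this difference. Over cytosolic ribosomal protein genes the median difference was -0.53. Only 1 independent hybridisation had GCN2c in Cy3, so a dye effect and the difference between hybridisations cannot be told apart. The core genes were lower in both orientations: the mean of replicates 1 and 3 alone lay between -0.75 for HHF1 and -0.32 for HHT1. Over all genes the orientations were only weakly correlated. Pearson r was 0.18 between replicates 1 and 2 and 0.29 between replicates 3 and 2, against 0.45 between replicates 1 and 3.

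**Figure D3:**
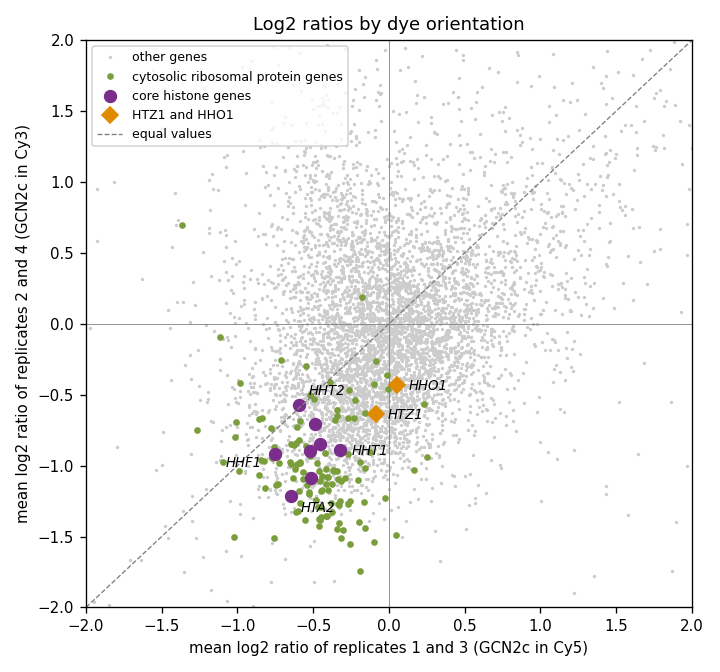
Mean log2 ratio of the dye-swapped pair (replicates 2 and 4, GCN2c in Cy3, y axis) against the mean of replicates 1 and 3 (GCN2c in Cy5, x axis) for each gene, with the core histone genes, HTZ1 and HHO1, and cytosolic ribosomal protein genes marked; 135 genes lie outside the drawn range. The 8 core genes lie below 0 on both axes, and 7 of them lie below the dashed line of equal values.

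With a dye term in the fit, 3 of the 10 passed limma's test: HTA2 at -0.93 (adjusted p = 0.0349), HTB2 at -0.80 (adjusted p = 0.0438) and HHF1 at -0.83 (adjusted p = 0.0471). In that fit 4.40% of all genes passed in the lower direction. The single Cy3 value leaves no residual in this fit. Each gene's spread is thus estimated from replicates 1 and 3 alone, before limma's eBayes step. Without the dye-swapped pair none of the 10 passed and the smallest adjusted p was 0.0953, for HHF1, where 1.33% of all genes passed in the lower direction. Counting the 4 columns as 4 replicates let 7 of the 10 pass, all core genes but HHT1, but it counts 1 hybridisation as 2. In that fit 9.62% of all genes passed in the lower direction. Had the authors not turned the dye-swapped pair to the direction of the others, the core means would lie between -0.21 and 0.08.

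Averaged over the replicates, other lists of histone biology had medians nearer to 0 than the core genes, and none of their genes passed limma's test or one-class SAM. Of 12 regulators of histone transcription tested, none rose or fell and 2 were lower at an unadjusted p under 0.05, where 10.7% of all genes were. HIR1, a subunit of the repressive HIR complex, stood at -0.66, -1.14 and -0.37 (mean -0.73 ± 0.39, SD, n = 3; limma adjusted p = 0.166). ASF1, a chaperone of H3 and H4 that works with HIR, stood at -0.39, -0.47 and -0.55 (mean -0.47 ± 0.08, SD, n = 3; limma adjusted p = 0.219). SWI4, the DNA-binding subunit of SBF, was at -0.33 ± 0.36, with a value above 0 on the dye-swapped pair. The list's median was -0.11 ± 0.04 over the replicates, against -0.66 ± 0.21 for the core genes and -0.06 ± 0.03 for all genes (SD, n = 3).

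The chaperone and importer list had a median below that of all genes on each replicate, but nearer to it than the core histone median was. None of its 16 tested genes rose or fell by limma, or passed at an unadjusted p under 0.05, and the list's median was -0.18 ± 0.07 (SD, n = 3). KAP123, an importin that carries histones into the nucleus, stood at -0.49 ± 0.27, MSI1, a subunit of the chromatin assembly factor CAF-1, at -0.41 ± 0.17, and POB3, of the FACT complex, at -0.25 ± 0.09. The 14 SWR1 complex genes had a median of 0.03 ± 0.05, with the catalytic subunit gene SWR1 at 0.40 ± 0.27, SWC3 at 0.43 ± 0.38 and ARP4, an actin-related subunit, at -0.39 ± 0.37. None of the 14 passed limma's test, adjusted or unadjusted.

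Of 7 genes for the centromeric histone and the removal of excess histones, none passed limma's adjusted test, 1 was higher and 1 lower at an unadjusted p under 0.05 (614 and 654 of the 6130 genes tested), and the median was -0.16 ± 0.09 (SD, n = 3). CSE4, the centromeric H3 variant, was at 0.05 and -0.57 on replicates 1 and 3 and 0.44 on the dye-swapped pair, and was named after its values were seen. UBC5, a ubiquitin-conjugating enzyme, was higher on each replicate, at 1.26, 1.65 and 0.58 (mean 1.16 ± 0.54, SD, n = 3; limma adjusted p = 0.105). It passed without the dye-swapped pair (limma adjusted p = 0.0246), with a dye term (0.0346) and with the 4 columns as 4 replicates (0.0422). RAD53, a checkpoint kinase that also directs the breakdown of excess histones, stood at -0.62 ± 0.40, and SCM3, the Cse4 chaperone, at -0.46 ± 0.26. Of 23 histone modifying enzyme genes 5 were lower at an unadjusted p under 0.05, against 10.7% of all genes, and none passed after adjustment. With a dye term SIR2 and DOT1 passed (limma adjusted p = 0.0482 and 0.0426), where 4.40% of all genes passed in the lower direction. With the 4 columns as 4 replicates 5 did, against 9.62% of all genes in the lower direction. Not all of the list was lower: its highest mean was 1.06. Without the dye-swapped pair 1 of its genes passed as higher, as did 273 genes over the whole table. The median of this list was -0.48, -0.11 and -0.14 on replicate 1, replicate 3 and the dye-swapped pair, so it was as low as the core histone median on replicate 1 alone. The H3 methyltransferase gene DOT1 stood at -0.76 ± 0.25, the deacetylase gene SIR2 at -0.83 ± 0.20, and RAD6, the ubiquitin-conjugating enzyme for H2B, at -0.57 ± 0.11.

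**Figure D4:**
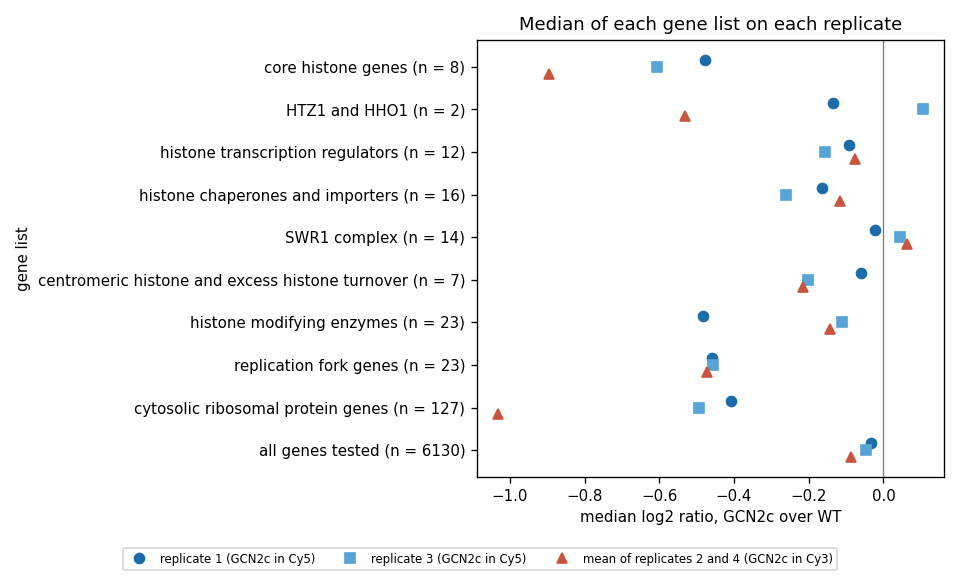
Median log2 ratio of GCN2c over WT (x axis) of each gene list (y axis, with the number of genes tested) on replicate 1, replicate 3 and the dye-swapped pair. The core histone medians, at -0.48, -0.61 and -0.89, lie near those of the cytosolic ribosomal protein genes, at -0.41, -0.49 and -1.03.

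Replication fork genes, which like the core histone genes are expressed around the start of S phase, were also lower in most members. Of 23 tested, 17 were below 0 on all 3 replicates, against 28.1% of all genes, and 9 were lower at an unadjusted p under 0.05, against 10.7%. None passed the adjusted threshold. With a dye term 2 did, RNR1 among them (limma adjusted p = 0.0349), where 4.40% of all genes passed in the lower direction. With the 4 columns as 4 replicates 9 did, against 9.62% of all genes in the lower direction. The median of the 23 fork genes was -0.46, -0.46 and -0.47 on replicate 1, replicate 3 and the dye-swapped pair. The core histone median was -0.48, -0.61 and -0.89. The 2 lists were thus close on replicate 1 and furthest apart in the Cy3 orientation. RNR1, the large subunit of ribonucleotide reductase, is not itself a fork protein but was counted in this list. It was the lowest of the 23 at -0.98 ± 0.19. POL12, a subunit of polymerase alpha, stood at -0.76 ± 0.24 and POL30, the sliding clamp, at -0.74 ± 0.21, and none of the 23 passed one-class SAM.

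Cytosolic ribosomal protein genes had medians close to those of the core histone genes on each replicate. Their median over 127 genes was -0.41, -0.49 and -1.03. All 127 had a mean below 0, as did 3424 of the 6130 genes tested. At an unadjusted p under 0.05, 84 were lower (10.7% of all genes), and none passed the adjusted threshold. With a dye term 73 passed, where 264 of all genes passed in the lower direction. With the 4 columns as 4 replicates 69 did, against 590 of all genes in the lower direction, and without the dye-swapped pair 8 did, against 80. RPS29B, RPL20B and RPL9A, the members with the smallest p-values, stood at -1.06 ± 0.15, -1.004 ± 0.041 and -1.18 ± 0.35. By one-class SAM 3 of these 127 genes passed, where 0.684% of all genes did in the lower direction.

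The profile of the core histone genes was shared by many others. Over the 3 replicates, 270 of 5987 other genes (4.51%) lay as near to the core median profile as the farthest core gene, HHF1, at a Euclidean distance of 0.36. Among them were 46 of the 127 cytosolic ribosomal protein genes and 3 of the 23 replication fork genes tested. The nearest were RPS17B, a small-subunit ribosomal protein gene (distance 0.035), GCD7, of the eIF2B factor that Gcn2 signalling inhibits (0.039), FIG1, a mating gene (0.045), MEK1, a meiotic kinase gene (0.051), and TOM20, of mitochondrial import (0.054). With 3 values per gene such nearness is a description.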

How the data were processed

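The table deposited by the authors holds log ratios, read here as log2, with 1 row per open reading frame. Per the labels, defective spots were removed by the authors, as were spots that failed a limit of 2 times local background in a channel. The centring, direction and log base of the ratios are not given in the sources used here, so base 2 is an assumption. Scanner files, spot intensities and probe sequences were not used here. Names were matched, ignoring case, to R64 locus tags (5662 of 6211), and SPT21, CTF4 and NHP6B lacked values for a test. Replicates 2 and 4 differed by an SD of 0.0638 over genes, against 0.852 between replicates 1 and 3, and were averaged. Genes with values on at least 3 arrays were tested against 0 with limma 3.58.1 (R 4.3.3, intercept only, eBayes, prior degrees of freedom 3.37), with Benjamini-Hochberg adjustment over 6130 genes and a threshold of 0.05. The fit and the SAM script were run on simulated data with known changes, drawn independently for each replicate. Only the mean limma estimate was checked there, not the calls of limma or SAM. The number of arrays limits the precision.

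Members and gene lists were chosen with earlier results of these data known. Named genes were the 10 histone genes, GCN2 and GCN4, those past the threshold and the 3 with the smallest p in each of 7 lists, and the 5 nearest profiles. GCN4 stood at 0.59 ± 0.23 (SD, n = 3; limma adjusted p = 0.180). Alternatives covered replicates left out, replicates 2 and 4 kept apart or turned, a dye term, centring, scaling, quantile normalization, filters, a robust prior and one-class SAM.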

Additional observations from a re-analysis of the deposited data

How the results depend on the processing

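Every core histone gene kept a mean below 0 under each alternative except with replicates 2 and 4 turned. There HTB2 stood at 0.019, HHT1 at 0.082, HTZ1 at 0.16, HHO1 at 0.18, KAP123 at 0.045, SCM3 at 0.015 and GCN2 at 0.13, and the mean of replicate medians was -0.036 for the 10 histone genes and -0.063 for the core genes. HHO1 ran from -0.26 without replicate 3 to 0.055 without replicates 2 and 4. CSE4 was at 0.092 with the 4 columns as 4 replicates and with a dye term and 0.032 after centring, and ran from -0.26 without replicates 2 and 4 to 0.25 without replicate 3. The count of histone genes that fell was 0, but 3 with a dye term and 7 with the 4 columns as 4 replicates (all core genes but HHT1, where 9.62% of all genes passed in the lower direction). For the 10 histone genes the mean of replicate medians ran from -0.71 without replicate 1 to -0.49 without replicates 2 and 4, and for the core genes from -0.75 to -0.54.

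Over all genes, 106 rose and 20 fell. The counts were 472 and 590 with 4 columns as 4 replicates, 326 and 264 with a dye term, and 0 and 0 with replicates 2 and 4 turned, where 250 genes had an unadjusted limma p under 0.05. Without 1 replicate at a time, or without replicates 2 and 4, the higher genes numbered 61 to 273 and the lower 13 to 80. The lower genes numbered 40 with values on all 4 arrays required, 43 with a robust prior and 41 by SAM. Of the other lists, ribosomal protein genes changed most: 73 fell with a dye term, 69 with the 4 columns as 4 replicates, 8 without replicates 2 and 4, 4 with a robust prior, 3 by SAM or with all 4 arrays required, and 1 without replicate 1. UBC5 passed under 3 alternatives. The cause of these shifts was not tested. Both strains lie on each array, so each ratio is itself a paired comparison, and the test against 0 uses that pairing. Spot brightness was not judged.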
